A study of Homo sapiens with 38 samples.

Results

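The clustered histone genes were the 72 rows of the gene table that carried the type protein-coding and a name starting with HIST1H, HIST2H, HIST3H or HIST4H, out of 58219 rows in all. They bear 71 distinct symbols, since HIST1H3D stood under 2 identifiers. Of the 72, 56 lie in the HIST1 cluster on chromosome 6, 12 in HIST2 and 3 in HIST3 on chromosome 1, and 1, HIST4H4, on chromosome 12. By product, 6 encode linker histone H1, 17 encode H2A, 18 encode H2B, 16 encode H3 and 15 encode H4. RNA selected by its poly(A) tails was sequenced from wild type H9, a long-established line of human embryonic stem cells, in 38 libraries that form 19 groups of 2. One group is undifferentiated cells at day 0 (D0 ESC), and 9 culture conditions follow at day 4 (D4) and again at day 8 (D8) of neural induction. The conditions are IWP2 at 2.0 µM, which blocks WNT secretion, CT at 0.0, 0.4, 0.8, 1.0, 2.0, 3.0 or 4.0 µM, and CT at 4.0 µM with retinoic acid (RA) at 1.0 µM. CT, a name that the labels do not expand, activates WNT signalling according to the design text, and CT0.0 cells are called untreated here. The series used the graded WNT signal to give the cells forebrain to spinal cord identities. The pairs of libraries are called biological replicates, without a statement that they were separate differentiations, so the p-values rest on the spread within those pairs, which may be technical.

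Histones are the proteins around which DNA is wound. H2A, H2B, H3 and H4 build the core particle and H1 binds the linker DNA between particles. Their clustered genes are transcribed mainly in S phase, and most of their mRNAs carry no poly(A) tail. Instead they end just after a short stem-loop that the protein SLBP binds, and they are degraded when DNA synthesis stops. Several of these genes also make longer transcripts that run past the stem-loop and are polyadenylated, and such forms are known from differentiating and non-dividing cells. Replication-independent histone genes, such as H3F3A and H2AFZ, lie outside the clusters and make ordinary polyadenylated mRNAs at all times. A poly(A) library therefore captures the usual clustered histone mRNA poorly, and what it holds may be polyadenylated forms, carry-over of tail-less RNA, or both. The values below do not separate these.

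The stem-loop was looked for in the GENCODE 29 transcript models of the 72 genes, all of which were matched by identifier without its version. The motif was 16 bases long on the transcribed strand (GG, any 3 bases, TT, any base, T, any base, A, any 3 bases, CC) and had to lie within 150 bases after the stop codon. It was found in 32 of the 72 genes, against 0.193% of 17599 other protein-coding genes with a model of that reach. The models of 35 clustered histone genes hold the coding sequence alone and end before a stem-loop could be seen, so a missing match there says nothing about the RNA. The forms below are shown because genes described later carry them. Capitals mark the arms of the stem, which pair with each other, and lower case marks the loop.
HIST2H2BE, HIST3H2A, HIST1H2AC, HIST1H2BH and 13 others: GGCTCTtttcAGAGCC
HIST1H2BD, HIST1H2BC and 3 others: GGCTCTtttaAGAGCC
HIST1H4J, HIST4H4 and 3 others: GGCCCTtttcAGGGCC
HIST2H4A, HIST2H4B and HIST1H4I: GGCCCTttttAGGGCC
The first pair of forms is found in H2A, H2B and H3 genes and the other pair in H4 genes. The model of HIST1H4J (373 bases) ends 6 bases after the stem-loop, as the usual tail-less mRNA does. The model of HIST2H2BE runs 1729 bases past it and that of HIST3H2A 390 bases. HIST1H2BD has a short model that ends 39 bases past the loop and a spliced model of 789 bases without the motif. In all, 7 genes had a model that ended near the stem-loop, 27 had a longer ("extended") model, and 3 had a short model without the motif. Of the 27 extended models, 20 had AATAAA or ATTAAA, the poly(A) signal, in their last 40 bases, as did 3 of the 7 that end near the stem-loop, HIST1H4J among them.

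Promoters were read from RefSeq (GRCh38.p14, 250 bases before to 50 after the start) for 61 of the 72 genes. The octamer ATTTGCAT, on either strand, was in 11 of 14 H2A and 14 of 18 H2B promoters but in 0 of 6 H1 and 0 of 13 H4 promoters. It was in 42.6% of the 61 promoters and in 1.80% of all 27305. CCAAT, on either strand, was in 83.6% against 35.7%, and TATAAA in 65.6% against 12%. Printed below are 3 H2B promoters whose genes had a CT slope that differed between the days, each on its own strand, with these motifs in capitals. The motifs do not overlap in them except where TATAAA matches run into each other.
HIST2H2BE, chr1:149886633-149886932, minus strand: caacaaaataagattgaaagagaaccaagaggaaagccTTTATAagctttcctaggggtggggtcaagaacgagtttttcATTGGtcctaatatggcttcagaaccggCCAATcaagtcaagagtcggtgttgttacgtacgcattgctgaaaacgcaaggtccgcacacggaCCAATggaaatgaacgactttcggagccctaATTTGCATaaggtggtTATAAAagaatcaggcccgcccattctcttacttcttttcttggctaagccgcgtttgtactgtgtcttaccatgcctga
HIST1H2BK, chr6:27146809-27147108, minus strand: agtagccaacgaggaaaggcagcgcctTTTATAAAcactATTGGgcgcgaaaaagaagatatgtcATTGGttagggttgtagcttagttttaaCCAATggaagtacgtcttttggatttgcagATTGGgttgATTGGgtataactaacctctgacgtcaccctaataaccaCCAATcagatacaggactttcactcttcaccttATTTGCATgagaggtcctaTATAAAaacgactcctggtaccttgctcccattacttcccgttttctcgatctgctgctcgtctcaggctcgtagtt
HIST1H2BJ, chr6:27132746-27133045, minus strand: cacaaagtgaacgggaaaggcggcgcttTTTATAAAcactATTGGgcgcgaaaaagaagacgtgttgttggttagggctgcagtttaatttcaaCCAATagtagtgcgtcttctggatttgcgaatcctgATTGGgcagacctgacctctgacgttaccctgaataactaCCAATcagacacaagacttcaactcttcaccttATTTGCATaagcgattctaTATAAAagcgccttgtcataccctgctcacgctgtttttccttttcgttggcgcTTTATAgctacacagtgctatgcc
Each of the 3 has 1 octamer match, a short distance before its TATAAA. The matches are descriptions of these letters and not of a bound factor.

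Clustered histone genes took a small share of the poly(A) libraries. Values are TPM, a transcript abundance that is corrected for length and expressed relative to the same total in each library. Their summed TPM ranged from 103.4 (D4 CT4.0RA, replicate 1) to 324.4 (D4 IWP2, replicate 1) over the 38 libraries, with a median of 188. This was 0.0103% to 0.0324% of all TPM. The 12 replication-independent histone genes summed to 12.9 to 34.8 times as much (median 22.5). Between 18 and 43 of the 72 genes reached 1 TPM in a library. Over all libraries 39 had a mean below 1 TPM, 4 had a mean of at least 10 TPM, and HIST1H2AA, HIST1H2BA, HIST1H4G and HIST1H4K were listed at 0 in every library.

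HIST1H4J, an H4 gene (ENSG00000197238.4, hg38 chromosome 6, 27824108 to 27824480, plus strand), had by far the highest level, with a mean of 56.1 TPM. It alone made up 17.6% to 43.7% of the summed TPM of the 72 genes, depending on the library. Next by mean were the H2B gene HIST1H2BK at 14.1 TPM, the H2A genes HIST2H2AC at 10.4, HIST2H2AA4 at 10.3 and HIST3H2A at 9.5, and the linker histone gene HIST1H1C at 8.18. HIST1H2AM (H2A) at 6.84 and HIST2H4A (H4) at 6.16 completed the 8 highest. HIST1H4J has the same coding sequence as HIST1H4K, which was listed at 0 everywhere, so the assignment between these copies is uncertain. The same holds for HIST2H2AA3 with HIST2H2AA4, HIST2H3A with HIST2H3C, and HIST2H4A with HIST2H4B. A level in TPM also depends strongly on the assumed length for models as short as these.

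By model, 39.6% of the summed mean TPM of the 72 genes came from the 7 genes whose model ends near the stem-loop, mostly HIST1H4J. The 35 genes with a coding-only model held 31.0%, the 27 with an extended model 26.9%, and the 3 others 2.52%. Of the 72 genes, 58 reached 1 TPM in at least 2 libraries and entered the tests, and 14 did not. The 58 comprise 4 H1, 16 H2A, 14 H2B, 13 H3 and 11 H4 genes.

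**Figure D1:**
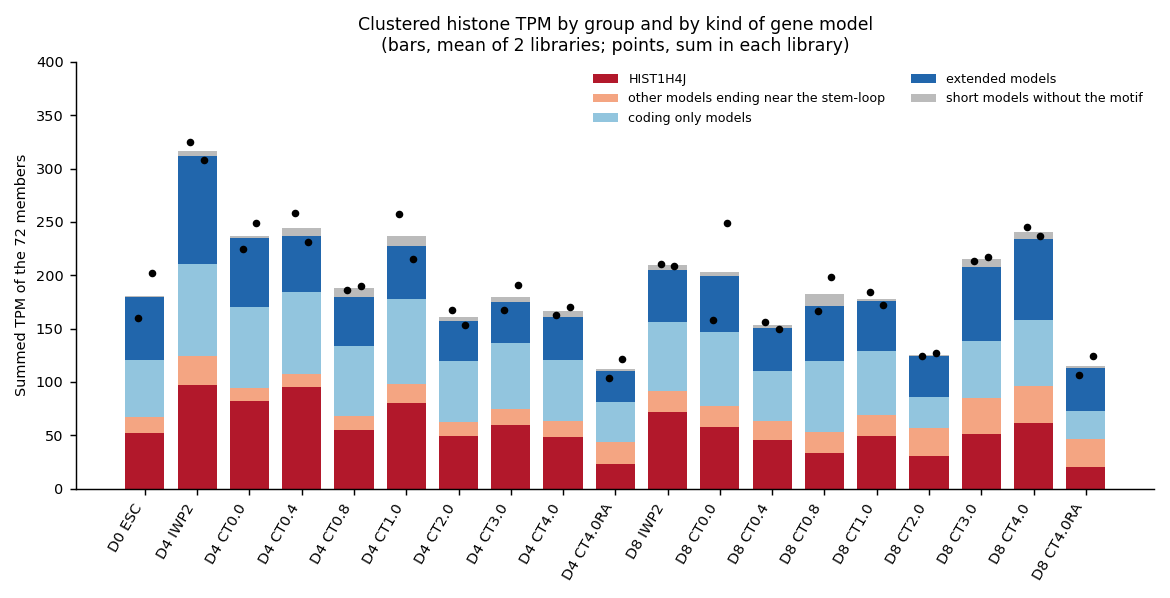
Summed TPM of the 72 clustered histone genes in each of the 19 groups. Stacked bars are group means split by the kind of transcript model, points are the libraries, and the y axis starts at 0. The sum was highest in D4 IWP2 (mean 316.3) and lowest in D4 CT4.0RA (112.3).

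The summed TPM averaged 180.9 at day 0. At day 4 it was 316.3 ± 11.5 (SD, n = 2) with IWP2 and 236.5 ± 17.3 in untreated cells. It was 166.5 ± 4.85 with CT4.0 and 112.3 ± 12.6 with CT4.0RA. At day 8 it was 203.3 ± 64.0 in untreated cells, and the library with the higher value, replicate 2, also had the most TPM of all libraries in RNAs without a poly(A) tail. That list (40 rows, among them RN7SL1, RN7SL2 and RMRP) summed to 7483 TPM there and to 2150 in replicate 1. The sum of clustered histone genes was 240.9 ± 5.77 in D8 CT4.0 and 115.3 ± 13 in D8 CT4.0RA. Of the 19 groups, the library with more clustered histone TPM was also the one with more TPM of tail-less RNAs in 9, and in 13 when RN7SL1 and RN7SL2 are left out of that sum. It was the one with more S phase gene TPM in 12. Whether carry-over of tail-less RNA contributed was not tested.

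A few facts of the whole series bear on what follows. Of the 38 libraries, 33 correlated best with their own group, and both D8 CT0.0 libraries, the reference at day 8, were among the exceptions. Over the 58 genes the correlation within groups lay between 0.672 and 0.909. Neural progenitor markers averaged 1136 summed TPM in D8 CT0.0 and 229 in D8 CT4.0. Mesoderm and endoderm markers (6 genes found, 2 of them tested) stood at 14.3 and 38.4 summed TPM in D4 CT3.0 and CT4.0 and at 11.1 and 23.7 on day 8, against 4.35 at day 0 and at most 2.16 in the other groups. In such bulk samples, fewer cells of a type and less RNA per cell cannot be told apart. Ribosomal protein and mitochondrial genes took 24.4% to 44.9% of TPM by library, and a larger share of these lowers all other TPM values.

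Differences were tested with limma on log2(TPM + 1) over 28221 genes. Calls required a Benjamini-Hochberg adjusted p under 0.05 together with a log2 change of at least 1 in size, or 0.25 per µM for a slope over the 7 CT doses. The scale understates changes of genes with low values. In the F test over the 9 conditions, which asks for an adjusted p under 0.05 alone, 19 of the 58 genes passed at day 4, against 46.4% of all genes tested. At day 8, 22 of 58 passed, against 57.9% of all genes. Both shares lie below the background, so the class as a whole gives no excess of genes that vary with condition. Of the 24 tested genes with an extended model, 14 passed at day 4 and 11 at day 8. The copies HIST2H3A and HIST2H3C had nearly the same values, and each counts among the passes at day 4. Of the 25 with a coding-only model, 3 and 7 passed. The median of mean TPM was 0.615 over all coding-only genes and 1.02 over all extended ones. The part of level in these counts was not tested, and a model does not show which form of the RNA was captured. The 4 tested H1 genes passed in 3 cases at day 4 and in 4 at day 8.

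**Figure D2:**
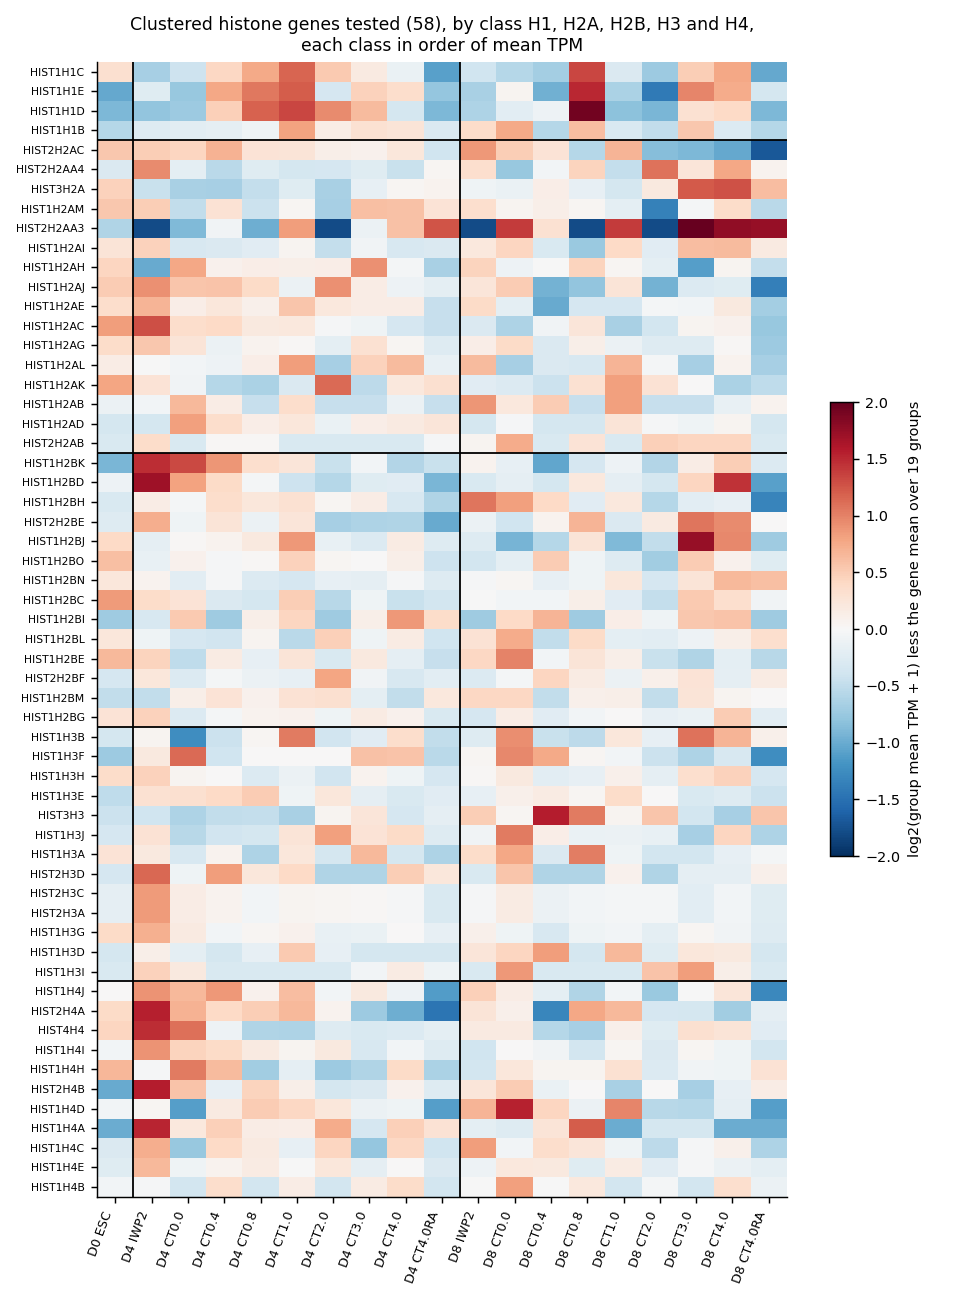
Level of the 58 tested clustered histone genes (rows, ordered by class) in the 19 groups (columns), as log2(group mean TPM + 1) less the gene's mean over groups, with the colour saturating at 2 in either direction. Many rows are high in D4 IWP2 and low in CT4.0RA on both days. In D4 IWP2, 27 of 58 genes had their highest day 4 mean, with copies such as HIST2H3A and HIST2H3C counted separately. The same share over all genes is not given, and 0 of the 58 were called between IWP2 and untreated cells at day 4.

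HIST1H2BK, an H2B gene (ENSG00000197903.7, chromosome 6, 27146418 to 27146798, minus strand), rose sharply on the way to untreated day 4 cells. It stood at 2.90 and 9.35 TPM in the day 0 libraries (replicates 1 and 2, as in all pairs below). In untreated day 4 cells it stood at 27.7 and 37.4 TPM, well above both day 0 libraries. The log2 change was 2.38 ± 0.33 (SE, adjusted p = 3.29e-06, limma). At day 8 untreated cells held 8.53 and 13.5 TPM, back below both untreated day 4 libraries, a log2 change of -1.5 ± 0.33 (adjusted p = 0.00212, limma). Both calls held without any 1 library.

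In untreated cells at day 4 against day 0, 5 of the 58 genes were called, against 16.8% of all genes (7.51% higher and 9.24% lower). HIST3H2A, an H2A gene of the HIST3 cluster (ENSG00000181218.5, chromosome 1, 228456979 to 228457873, minus strand), was called lower. It was at 12.3 and 12.3 TPM at day 0 and at 4.57 and 5.77 TPM in untreated day 4 cells, which do not overlap. The log2 change was -1.11 ± 0.23 (adjusted p = 4.16e-04, limma), and it was -0.97 without replicate 1 of D4 CT0.0, just short of the size threshold. The other 3 calls rest on low values and on single libraries. HIST1H3F rose by 1.80 ± 0.61 and the H4 gene HIST2H4B by 1.56 ± 0.42, and HIST1H2BE fell by 1.15 ± 0.34. The first was lost without either day 0 library or without replicate 2 of D4 CT0.0. HIST2H4B was lost without replicate 2 of either group (1.27 and 1.19), and HIST1H2BE without replicate 1 of either (-0.93 and -1.07). HIST2H4B shares its coding sequence with HIST2H4A, and the TPM of both together went from 7.61 and 7.22 at day 0 to 12.9 and 10.7 in untreated day 4 cells, and the split of reads between the copies is uncertain.

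Averaged over the 9 day 4 conditions, 4 of 58 genes were called against day 0, compared with 13.9% of all genes (4.12% higher and 9.82% lower), and all 4 were higher. HIST1H2BK led with 1.37 ± 0.24 (adjusted p = 7.13e-05, limma), but without replicate 1 of D0 ESC the change was 0.67 (adjusted p = 0.0588, limma). The linker histone gene HIST1H1E rose by 1.21 ± 0.22, HIST2H4B by 1.19 ± 0.31 and the linker histone gene HIST1H1D by 1.07 ± 0.28. Without replicate 2 of D0 ESC these changes were 0.99, 0.90 and 0.90, none of which reaches the threshold. The sum of HIST2H4B and its copy HIST2H4A did not rise throughout: from a mean of 7.42 TPM at day 0 it went to 24.0 with IWP2 and to 3.86 with CT4.0 and 2.39 with CT4.0RA at day 4. Between the day 8 mean and the day 4 mean 0 of 58 genes were called with limma, against 1.88% of all genes (1.37% higher and 0.507% lower). An unadjusted p below 0.05 was found for 5 genes (8.62%) higher and 16 (27.6%) lower at day 8, against 29.6% and 19.7% of all genes. In untreated cells, 4 of 58 were called between day 8 and day 4, against 5.78% of all genes (4.11% higher and 1.67% lower). Besides HIST1H2BK these were HIST1H4D (2.65 ± 0.71), HIST1H3B (2.15 ± 0.74) and HIST1H2BE (1.47 ± 0.34), all higher at day 8. HIST1H4D and HIST1H3B were listed at 0 in both untreated day 4 libraries, and each of the 3 calls was lost without at least 1 library, replicate 2 of D8 CT0.0 in every case.

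HIST1H2BK was lower at the higher CT doses at day 4. From 27.7 and 37.4 TPM in untreated cells it passed through 23.5 and 24.3 at 0.4 µM, 12.9 and 19.0 at 0.8 µM and 14.9 and 14.8 at 1.0 µM. It then stood at 6.78 and 11.0 TPM at 2.0 µM, 9.43 and 14.6 at 3.0 µM and 6.94 and 8.94 at 4.0 µM. Each library at 0.8 µM or more lay below each library at 0.0 and 0.4 µM. From 0.8 µM on, 1.0 and 2.0 µM lie apart, as do 3.0 and 4.0 µM, and the other neighbouring doses overlap. The slope was -0.41 ± 0.06 log2 units per µM (adjusted p = 2.84e-05, limma) and the change at 4.0 µM was -1.90 ± 0.33 (adjusted p = 1.16e-04, limma). Over the doses from 0.0 to 2.0 µM alone, a range chosen after seeing the data, the slope was -0.89 (adjusted p = 1.48e-04, limma).

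HIST2H4A and HIST2H4B, H4 genes with identical coding sequences (HIST2H4A lies on chromosome 1, 149832659 to 149839767, plus strand), are best read as a sum. The sum was 25.8 and 22.1 TPM with IWP2 at day 4, 12.9 and 10.7 TPM in untreated cells and 2.24 and 5.47 TPM with CT4.0. With CT4.0RA it was 2.03 and 2.74 TPM. The IWP2, untreated and CT4.0 libraries thus do not overlap, whereas CT4.0 and CT4.0RA do. For HIST2H4A the slope was -0.50 ± 0.10 (adjusted p = 3.43e-04, limma), but -0.23 (adjusted p = 0.582, limma) over 0.0 to 2.0 µM. Its change at 4.0 µM was -1.99 ± 0.49, and -0.94 (adjusted p = 0.20, limma) without replicate 1 of D4 CT4.0, where it was at 0.202 TPM, or -1.70 (adjusted p = 0.0527, limma) without replicate 1 of D4 CT0.0.

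HIST1H2BK and HIST2H4A were the 2 slope calls among the 58 genes at day 4, against 7.65% of all genes tested (3.75% higher and 3.90% lower). Between CT4.0 and untreated cells at day 4, 4 of 58 were called, against 8.30% of all genes (3.31% higher and 4.99% lower). HIST4H4, the H4 gene on chromosome 12, was at 9.19 and 11.1 TPM in untreated cells and at 3.74 and 2.81 TPM with CT4.0, a change of -1.39 ± 0.45. It already stood at 2.26 and 5.44 TPM with CT0.4, and the call at 4.0 µM was lost without any 1 of the 4 libraries compared. HIST1H1E was the 1 gene called higher, by 1.03 ± 0.30. That change was 0.50 without replicate 1 of D4 CT4.0 (5.74 TPM, against 2.23 in replicate 2) and 0.84 without replicate 1 of D4 CT0.0.

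**Figure D3:**
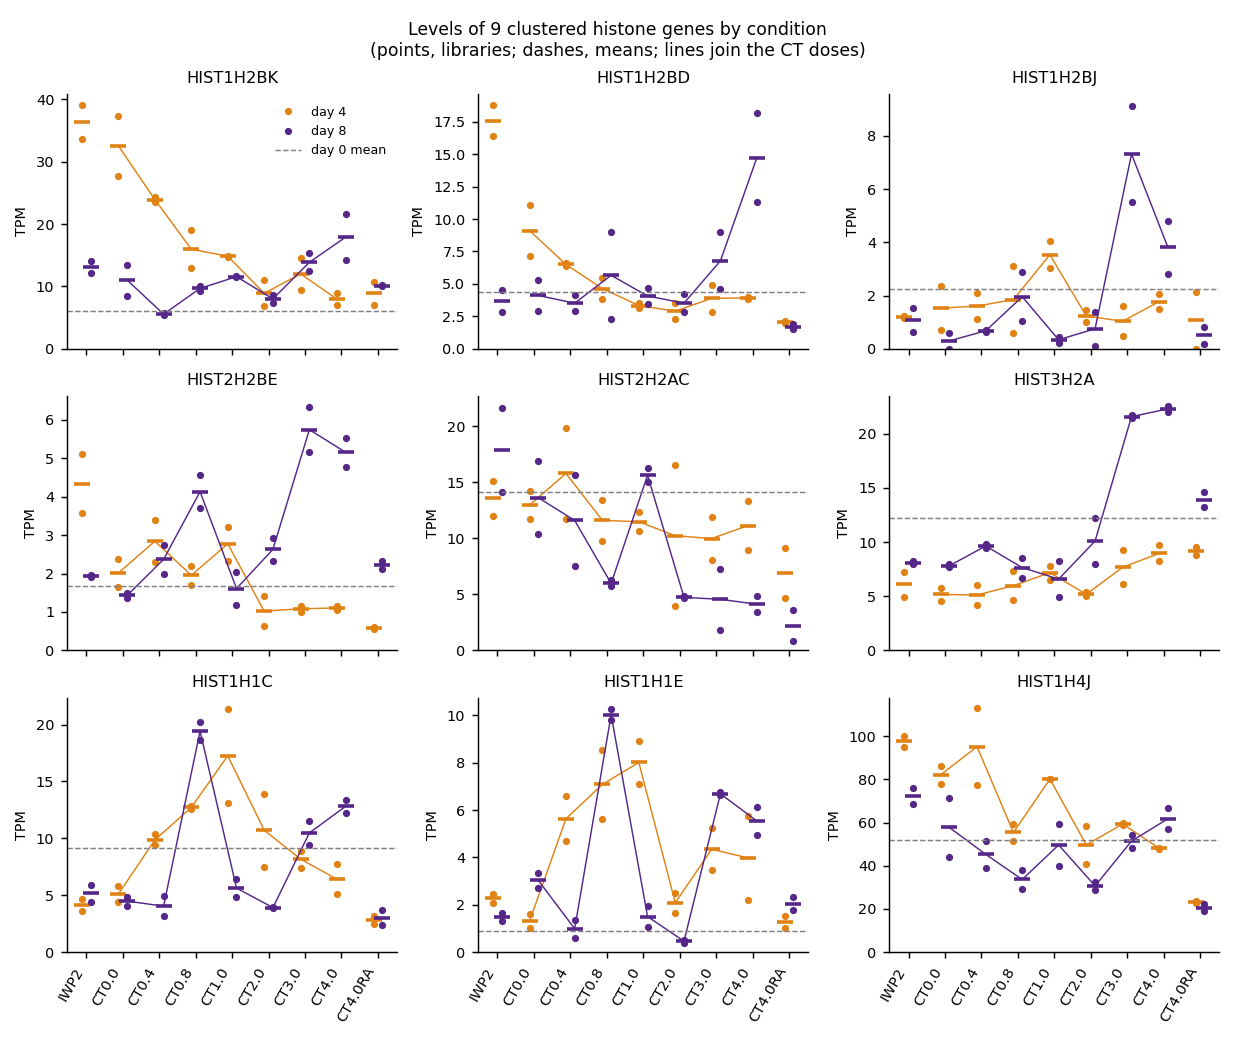
TPM of 9 clustered histone genes by condition, with day 4 in orange and day 8 in purple. Points are libraries, lines join the group means over CT doses, the dashed line is the day 0 mean, and each y axis starts at 0 with its own range. HIST1H2BK falls with CT dose at day 4, and HIST3H2A and HIST2H2BE are high at 3.0 and 4.0 µM at day 8.

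With IWP2 at day 4, more clustered histone genes lay above untreated cells than below, yet none was called with limma (0 of 58, against 0.283% of all genes, 0.159% higher and 0.124% lower). Of the 58, 44 (75.9%) were above 0, against 50.2% of all genes tested, and the median log2 change was 0.37 against 0.00 for all genes. At an unadjusted p under 0.05, 12 (20.7%) were higher and 1 (1.72%) was lower, against 6.70% and 4.99% of all genes. By model, 21 of 24 genes with an extended model and 15 of 25 with a coding-only model were above 0. These classes also differ in level, as stated above. The copies HIST2H3A and HIST2H3C had nearly the same values and each counts among the higher genes. HIST1H2AC (H2A, chromosome 6, 26124145 to 26139116, plus strand) stood at 4.79 and 4.07 TPM with IWP2 and at 1.58 and 2.10 TPM in untreated cells, without overlap. Its change of 0.94 ± 0.19 (adjusted p = 0.0156, limma) missed the size threshold of 1. It is named here because of its value. HIST1H2BD (H2B) was at 18.8 and 16.4 TPM with IWP2 and at 7.13 and 11.1 TPM untreated, also without overlap, and its change of 0.90 ± 0.39 did not pass (adjusted p = 0.357, limma). HIST2H2BE (H2B) gave 5.10 and 3.56 TPM against 1.64 and 2.39, again apart, with a change of 0.82 ± 0.22 (adjusted p = 0.0857, limma). The tail-less RNAs summed to 761 and 822 TPM in D4 IWP2 and to 979 and 622 TPM in D4 CT0.0, which overlap. The S phase genes summed to 2756 and 2728 TPM in D4 IWP2 and to 2893 and 2889 TPM in D4 CT0.0. The part of either in the IWP2 values was not tested. At day 8, 0 of 58 genes were called between IWP2 and untreated cells with limma, against 0.425% of all genes (0.195% higher and 0.230% lower), and an unadjusted p under 0.05 was reached by 0 higher and 3 lower genes (5.17%), against 6.91% and 4.07% of all genes. The difference between the IWP2 effects on the 2 days was called for 1 of 58 genes, HIST1H2BG (H2B), against 0.230% of all genes (0.124% higher and 0.106% lower). That gene stayed at 1.06 TPM or lower in every library, and the call was lost in 6 of 13 alternatives, 5 of which leave out 1 library.

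At day 8 the highest CT doses went with more RNA from a small set of clustered histone genes. Comparing CT4.0 with untreated cells, 5 of 58 were called higher and 3 lower, against 3.15% and 12.7% of all genes tested (15.8% together). HIST3H2A stood at 22.0 and 22.6 TPM with CT4.0 and at 21.7 and 21.4 TPM with CT3.0. In untreated day 8 cells it was at 7.66 and 7.97 TPM, and from 0.4 to 2.0 µM the libraries ranged between 4.92 and 12.3 TPM. The libraries at 3.0 and 4.0 µM lay above all others at day 8, including IWP2 and CT4.0RA, and above day 0. The change at 4.0 µM was 1.40 ± 0.23 (adjusted p = 3.06e-05, limma) and the slope 0.41 ± 0.04 per µM.

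HIST2H2BE, an H2B gene whose model extends far past its stem-loop (ENSG00000184678.10, chromosome 1, 149884459 to 149886652, minus strand), followed the same outline. It gave 1.49 and 1.37 TPM in untreated day 8 cells, 4.56 and 3.70 at CT0.8, 5.15 and 6.32 at CT3.0 and 5.52 and 4.77 at CT4.0. The libraries at CT0.4, CT1.0 and CT2.0 lay between 1.19 and 2.93 TPM, so the level did not climb evenly with dose. The change at 4.0 µM was 1.34 ± 0.22 (adjusted p = 3.33e-05, limma), and the slope was 0.31 ± 0.04 per µM.

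HIST1H2BD (ENSG00000158373.8, chromosome 6, 26158146 to 26171349, plus strand) was at 2.93 and 5.28 TPM in untreated day 8 cells and at 11.3 and 18.2 TPM with CT4.0. At CT3.0 it was at 8.98 and 4.58 TPM, which overlaps with untreated cells. The change at 4.0 µM was 1.63 ± 0.39 (adjusted p = 0.00187, limma). HIST1H2BJ, an H2B gene near HIST1H2BK (ENSG00000124635.8, chromosome 6, 27125897 to 27132750, minus strand), gave 0.593 and 0 TPM in untreated cells, 5.52 and 9.10 with CT3.0 and 4.79 and 2.82 with CT4.0. All other day 8 libraries were at 2.88 TPM or lower, which still overlaps with the lower CT4.0 library. Its change of 1.90 ± 0.52 (adjusted p = 0.00535, limma) fell to 1.56 (adjusted p = 0.0669, limma) without replicate 2 of D8 CT0.0 and to 1.60 (adjusted p = 0.0649, limma) without replicate 1 of D8 CT4.0. HIST1H1C, the linker histone gene with the highest level (ENSG00000187837.3, chromosome 6, 26055787 to 26056428, minus strand), went from 4.08 and 4.89 TPM to 12.3 and 13.4 TPM, a change of 1.34 ± 0.26 (adjusted p = 2.03e-04, limma). The calls of HIST3H2A, HIST2H2BE, HIST1H2BD and HIST1H1C held without any 1 library.

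HIST2H2AC, HIST1H4D and HIST1H2BE were the 3 genes called lower with CT4.0 at day 8. HIST2H2AC, an H2A gene (ENSG00000184260.5, chromosome 1, 149886975 to 149887364, plus strand), went from 16.8 and 10.4 TPM to 3.44 and 4.81 TPM, which do not overlap. Its change was -1.49 ± 0.52 (adjusted p = 0.0281, limma). It was -1.17, -1.29 and -1.68 (adjusted p of 0.191, 0.151 and 0.0543, limma) without D8 CT0.0 replicate 1, D8 CT4.0 replicate 1 or D8 CT4.0 replicate 2. HIST1H4D (-1.90 ± 0.71) was at 4.92 and 5.65 TPM untreated and at 1.81 and 0 TPM with CT4.0, and was lost without either D8 CT0.0 library or without replicate 2 of D8 CT4.0. HIST1H2BE (-1.16 ± 0.34) was at 1.55 and 2.64 TPM untreated and at 0.240 and 0.492 TPM with CT4.0. Leaving out replicate 2 of D8 CT0.0 gave -0.91, and leaving out replicate 1 of D8 CT4.0 gave -1.03 (adjusted p = 0.0737, limma). Without replicate 2 of D8 CT0.0 the total fell from 8 to 5 calls.

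How the libraries are scaled matters here, because the median of all genes tested was itself -0.27 in this comparison. Median-ratio scaling, which sets that median to 0, shifted it by 0.27. The clustered histone genes called were then 7 higher and 0 lower (57 tested) in place of 5 and 3, and all genes called were 1626 higher and 1828 lower in place of 889 and 3580. For the slope at day 8, 8 of 58 genes were called, 4 higher and 4 lower, against 20.2% of all genes (3.77% higher and 16.4% lower). Median-ratio scaling gave 11 higher and 2 lower clustered histone genes, and 2151 higher and 2346 lower genes in place of 1065 and 4640. HIST1H2BJ (0.54 ± 0.10), HIST3H2A, HIST1H2BD (0.36 ± 0.08) and HIST2H2BE were the slopes called higher, and HIST2H2AC (-0.41 ± 0.10), HIST1H4D (-0.41 ± 0.14), HIST3H3 (-0.34 ± 0.09) and HIST1H3F (-0.33 ± 0.12) those called lower. HIST1H4D was lost without replicate 2 of D8 CT3.0 or of D8 CT4.0. HIST1H3F was lost without replicate 2 of D8 CT0.0, D8 CT0.4 or D8 CT4.0 or without replicate 1 of D8 CT3.0.

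The slopes called higher were not called without the 2 highest doses. The levels were not all low below these doses, since HIST2H2BE was also high at CT0.8, as given above. Over 0.0 to 2.0 µM alone, a range chosen after seeing the data, the day 8 slopes of HIST3H2A (0.09, adjusted p = 0.655), HIST2H2BE (0.19, adjusted p = 0.21) and HIST1H2BJ (0.09, adjusted p = 0.866) did not pass with limma. That of HIST1H2BD was -0.05 (adjusted p = 0.915, limma).

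The dose response of several genes differed between the days, with the difference itself tested. The day 8 slope less the day 4 slope was called positive for 9 of 58 genes and negative for 2, against 2.01% and 11.9% of all genes tested (13.9% together). For HIST1H2BK the slope was -0.41 at day 4 and 0.23 at day 8, and they differed by 0.64 ± 0.09 (adjusted p = 8.56e-06, limma). Its day 8 libraries ran from 5.40 and 5.70 TPM at CT0.4 to 21.6 and 14.2 TPM at CT4.0, with untreated cells (8.53 and 13.5 TPM) in between. For HIST2H2BE it was -0.22 at day 4 and 0.31 at day 8, and they differed by 0.53 ± 0.06 (adjusted p = 5.55e-07, limma). At day 4 it ran from 1.64 and 2.39 TPM untreated to 1.16 and 1.05 TPM with CT4.0, so the groups lie apart in opposite order on the 2 days. HIST1H2BD (0.56 ± 0.11) and HIST1H2BJ (0.60 ± 0.14) also differed. Leaving out any 1 library kept these 4 calls. HIST3H3, an H3 gene known from the testis, had the largest negative difference (-0.49 ± 0.13). D8 CT0.4 held 2.13 and 6.46 TPM, a high mean set by 1 library, D8 CT0.8 held 2.76 and 2.56 TPM, and D8 CT4.0 held 0.251 and 0 TPM.

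**Figure D4:**
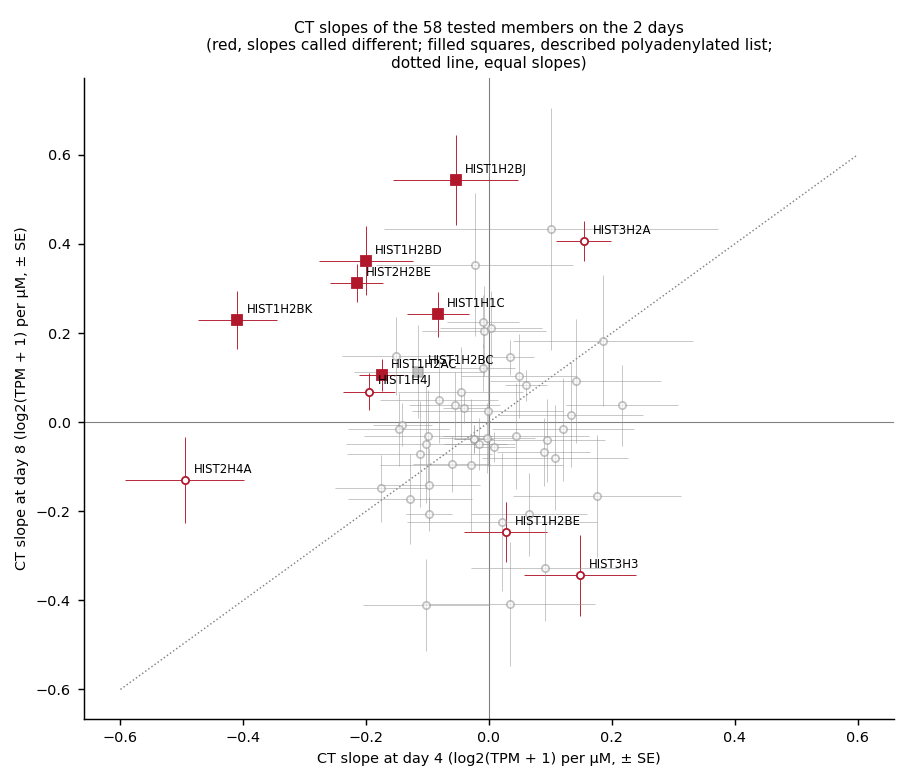
CT slope in log2(TPM + 1) per µM at day 4 (x axis) and at day 8 (y axis) for the 58 tested clustered histone genes, with bars of 1 SE. Red marks the 11 genes whose slopes were called different between the days, filled squares mark the 7 genes for which polyadenylated forms are described, and the dotted line marks equal slopes. HIST1H2BK, HIST1H2BD and HIST2H2BE lie left of 0 and above it.

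Polyadenylated forms are described, as background, for 7 of these genes: HIST1H1C, HIST1H2AC, HIST1H2BC, HIST1H2BD, HIST1H2BJ, HIST1H2BK and HIST2H2BE. That list was drawn up with earlier results of these data known. All 7 had a positive difference between the slopes (median 0.53, against -0.08 for all genes tested) and 6 of them were called, HIST1H2BC being the exception (2.01% of all genes were called positive). With CT4.0 at day 8 all 7 lay above 0 (median 1.34, against -0.27 for all genes) and 4 were called higher (3.15% of all genes were). Their summed TPM averaged 28.8 at day 0. At day 4 it ran from 69.3 with IWP2 and 53.3 in untreated cells down to 22.2 with CT4.0 and 16.4 with CT4.0RA. Much of this day 4 range came from HIST1H2BK, at 36.4 with IWP2, 32.5 in untreated cells and 7.94 with CT4.0. At day 8 the sum was 22.5 in untreated cells, 43.4 with CT0.8, 47.1 with CT3.0, 57.0 with CT4.0 and 18.6 with CT4.0RA. Between these, CT0.4, CT1.0 and CT2.0 gave 18.0, 24.2 and 19.8. HIST1H4J, whose model ends at the stem-loop, was at 43.9 and 71.5 TPM in untreated day 8 cells and at 57.0 and 66.5 TPM with CT4.0, which overlap (change 0.13 ± 0.22, adjusted p = 0.712, limma). Its slope also differed between the days, by 0.26 ± 0.06 (adjusted p = 0.00145, limma; -0.19 at day 4 and 0.07 at day 8).

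In the CT4.0 comparison at day 8, where 12.7% of all genes tested were called lower and 3.15% higher, 7 of 22 S phase genes were called lower and 0 higher, led by CCNE1 (-1.67), UHRF1 (-1.52), CDC45 (-1.44) and MCM6 (-1.24), which act in the start of DNA replication or, for UHRF1, in copying DNA methylation. Of the 11 tested genes listed here as replication-independent histone genes, 3 were called lower, H2AFX (-1.55), H2AFY (-1.49) and H1FX (-1.37), and 0 higher. Whether each listed gene makes only polyadenylated mRNA was not examined. Of 11 histone chaperone genes 4 were called lower, among them ASF1B (-1.12) and CHAF1A (-1.01), which load new histones behind the replication fork. Of 20 genes of histone mRNA synthesis and processing 1 was called, CRAMP1 (-1.19), and SLBP, at 58 and 53.3 TPM untreated and 35.0 and 34.5 TPM with CT4.0, was not called. Of 12 G2 and M phase genes, MKI67 (-1.12) and CENPF (-1.11) were called lower, so the processing genes lie below, and the G2 and M phase genes near, the share of all genes called lower. By summed group means, S phase genes went from 2480 to 1516 TPM and replication-independent histones from 5146 to 3140 TPM. The ratio of the latter to the clustered histones went from 26.8 to 13. With median-ratio scaling 3 of the S phase genes, 2 of the replication-independent histone genes and 0 of the chaperone, processing and G2 and M phase genes were called lower, while 5 of the 7 genes with described polyadenylated forms were called higher.

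CDKN1A, which encodes the cell cycle inhibitor p21, was high with CT3.0 and CT4.0 at day 8. It was at 9.82 and 10.1 TPM in untreated cells, 17.5 and 20.0 at CT0.4, 30.0 and 31.4 at CT0.8, 14.5 and 16.8 at CT1.0, 8.07 and 8.61 at CT2.0, 133 and 118 at CT3.0 and 140.5 and 138.2 TPM at CT4.0. Its change at 4.0 µM was 3.68 ± 0.23 (adjusted p = 2.17e-11, limma), and BTG2, another growth-inhibitory gene, rose by 1.34. The other tested genes of cell cycle exit did not share this rise. CDKN2C (-1.25) was called lower. CDKN2D (-0.81), CDKN1B (-0.50) and BTG1 (-0.47) fell and CDKN1C (0.56) rose without being called. CDKN1A and the sum of the 7 genes with described polyadenylated forms both had their 3 highest day 8 means at CT0.8, CT3.0 and CT4.0. HIST1H1C alone held 19.4 of the 43.4 TPM of that sum at CT0.8. The part of cell cycle state in the histone values was not tested. Tail-less RNAs summed to 2150 and 7483 TPM in D8 CT0.0 and to 3609 and 4192 TPM in D8 CT4.0, which overlap. Without RN7SL1 and RN7SL2 the sums were 109 and 443 against 240 and 101 TPM, which overlap as well. The most abundant of these RNAs, RN7SL2 (0.05 ± 0.47) and RN7SL1 (-0.20 ± 0.41), were not called.

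**Figure D5:**
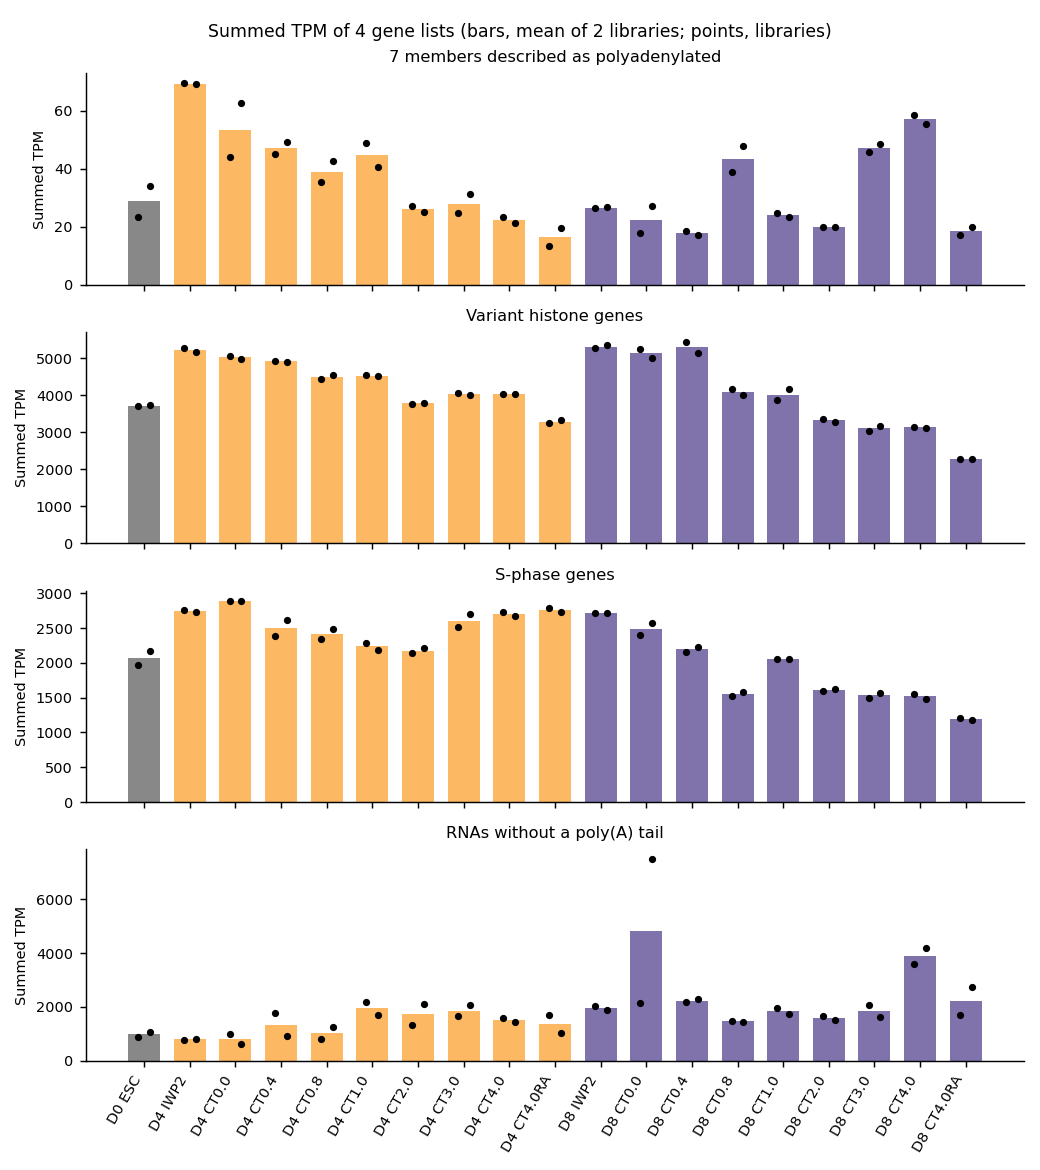
Summed TPM by group of the 7 clustered histone genes with described polyadenylated forms, the replication-independent histone genes, the S phase genes and the RNAs without a poly(A) tail. Bars are means of 2 libraries, points are the libraries, and each y axis starts at 0 with its own range. At day 8 the first panel is high at CT0.8, CT3.0 and CT4.0 while the S phase panel falls from 2480 in untreated cells to 1516 at CT4.0.

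Pairs of neighbouring genes that share a promoter region were also compared. Of the clustered histone genes, 12 pairs start within 500 bases of each other on opposite strands, and in 8 pairs both genes were tested. With CT4.0 at day 8 the 2 genes of a pair had opposite signs in 4 of the 8. Unrelated genes could give as much, and no share was computed for other gene pairs. HIST1H2AI (0.22) with HIST1H2BL (-0.24) and HIST1H2BN (0.61) with HIST1H2AK (-0.33) were among these, none of them called. HIST2H2BE and HIST2H2AC start 236 bases apart, so the HIST2H2BE promoter printed above, read on its other strand, also leads to HIST2H2AC. These were the 1 pair in which both genes were called, HIST2H2BE higher (1.34) and HIST2H2AC lower (-1.49), the latter call depending on single libraries as stated. HIST1H2BJ (1.90) starts 248 bases from the H2A gene HIST1H2AG, which changed by -0.38 and was not called. HIST3H2A (1.40) starts 230 bases from HIST3H2BB, which stayed below 1 TPM in all libraries and was not tested.

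The linker histone genes HIST1H1C, HIST1H1D and HIST1H1E had their highest levels at intermediate CT doses on both days. At day 4 HIST1H1C was at 4.44 and 5.79 TPM in untreated cells, 12.6 and 12.8 at CT0.8, 21.4 and 13.1 at CT1.0 and 7.75 and 5.07 at CT4.0. At day 8 it was at 4.08 and 4.89 TPM untreated, 4.92 and 3.17 at CT0.4, 18.6 and 20.2 at CT0.8 and 4.86 and 6.41 at CT1.0. The CT0.8 libraries at day 8 stand above every other day 8 library, with the neighbouring doses at the level of untreated cells. HIST1H1E (chromosome 6, 26156354 to 26157107, plus strand) also had its highest day 8 mean at CT0.8. It was at 10.3 and 9.80 TPM at D8 CT0.8, 0.612 and 1.37 at CT0.4 and 1.05 and 1.96 at CT1.0. HIST1H1D (chromosome 6, 26234268 to 26234933, minus strand) was at 7.15 and 9.18 TPM at D8 CT0.8, 1.00 and 1.5 at CT0.4 and 0.729 and 0 at CT1.0.

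Both libraries of D8 CT0.8 therefore stand apart from both neighbouring doses for all 3 genes. Summed over the 3, D8 CT0.8 held 36.1 and 39.2 TPM, against 6.54 and 6.04 at CT0.4 and 6.64 and 8.37 at CT1.0. CT3.0 and CT4.0 came second, with 18.4 and 19.9 and with 20.3 and 20.8 TPM. The F test over conditions gave adjusted p of 1.8e-07 for HIST1H1C, 8.3e-08 for HIST1H1E and 9.1e-06 for HIST1H1D at day 8 (limma), and of 2e-06, 1.1e-05 and 2.3e-05 at day 4. The peak was seen first and no contrast of CT0.8 with its neighbours was tested. H1F0, a replication-independent linker histone gene, was at 318 and 298 TPM in D8 CT0.8 and at 150 and 109 TPM in D8 CT0.0, which do not overlap. H1F0 was not compared with the neighbouring doses here.

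HIST1H2BH (H2B, chromosome 6, 26251651 to 26253710, plus strand) had the lowest F test p of the 58 at day 8 (adjusted p = 5.1e-09, limma) and is named for that value. It went down from 7.51 and 8.55 TPM with IWP2 and 5.96 and 7.24 untreated, through 3.76 and 4.21 at CT1.0, to 3.06 and 2.61 at CT4.0 and 0.851 and 0.594 with CT4.0RA. Its IWP2 and CT4.0RA libraries bound the day 8 range from above and below without overlap with any other day 8 group. Its change at CT4.0 was -0.98 ± 0.19 and missed the size threshold. It thus moved opposite to HIST2H2BE and HIST1H2BD, H2B genes that were called higher.

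Retinoic acid lowered clustered histone genes at day 8. Between CT4.0RA and CT4.0, 7 of 58 genes were called lower and 0 higher, against 4.33% and 4.54% of all genes tested (8.87% together). The median over the 58 was -0.56 with 10 above 0, while the median of all genes was 0.00. HIST1H2BD went from 11.3 and 18.2 TPM to 1.53 and 1.88 TPM, a change of -2.51 ± 0.39 (adjusted p = 2.91e-05, limma). HIST1H1C went from 12.3 and 13.4 TPM to 2.35 and 3.67 TPM, a change of -1.81 ± 0.26 (adjusted p = 9e-06, limma). HIST1H4J went from 57.0 and 66.5 TPM to 19.1 and 22.2 TPM, the first of which was its lowest in the 38 libraries (-1.54 ± 0.22, adjusted p = 7.93e-06, limma). In none of these 3 do the groups overlap.

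The other 4 were HIST1H2BJ (-1.68 ± 0.52), HIST1H1D (-1.30 ± 0.37), HIST1H2BH (-1.16 ± 0.19) and HIST1H1E (-1.10 ± 0.30). HIST1H2BJ was -1.38 and -1.36 without replicate 1 of D8 CT4.0 or replicate 2 of D8 CT4.0RA and was then not called. HIST1H1D was -1.18 and -1.11 without replicate 2 of D8 CT4.0 or replicate 1 of D8 CT4.0RA, and HIST1H1E was -0.96 and -0.97 without replicate 1 of D8 CT4.0 or replicate 2 of D8 CT4.0RA, none of them called. HIST3H2A stayed at 13.2 and 14.6 TPM with RA, below both CT4.0 libraries and above both untreated ones. CDKN1A fell to 17.7 and 21.6 TPM with RA (-2.77 ± 0.23) and BTG2 fell by 1.32. Of the 22 S phase genes 2 were called lower and of the 12 G2 and M phase genes AURKB (-1.20) and PLK1 (-1.02), against 4.33% of all genes lower and 4.54% higher. The share of TPM in ribosomal protein and mitochondrial genes averaged 44.5% with CT4.0RA and 36.8% with CT4.0, and its part in these values was not tested.

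At day 4, 2 of 58 genes were called lower with RA, against 5.84% of all genes (1.77% higher and 4.07% lower), where the median of all genes was -0.18. HIST1H4J went from 48.4 and 47.7 TPM to 22.9 and 23.6 TPM, without overlap, a change of -1.01 ± 0.22 (adjusted p = 0.00126, limma). It was -0.69 after median-ratio scaling, -0.84 after rescaling without ribosomal protein and mitochondrial genes and -0.99 without replicate 1 of D4 CT4.0RA, all short of the size threshold. HIST1H1E (-1.04 ± 0.30) was -0.51 without replicate 1 of D4 CT4.0, -0.88 without replicate 2 of D4 CT4.0RA and -0.84 after median-ratio scaling, and was then not called. The difference between the RA effects on the 2 days was called for 1 of 58 genes, HIST1H2BD, against 7.13% of all genes (5.56% higher and 1.56% lower). The effect was -0.69 at day 4 and -2.51 at day 8. The difference was -1.82 ± 0.55 (adjusted p = 0.0272, limma) and was lost on leaving out 7 of the 8 libraries involved, with values from -2.14 to -1.5.

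Genes known for expression in the testis were at or near 0. Of these 4, HIST1H2AA and HIST1H2BA were listed at 0 in all 38 libraries and HIST1H1T reached at most 0.160 TPM. HIST3H3 was the 1 that passed the filter, and the 4 together summed to at most 6.46 TPM in a library. HIST1H2AM and HIST2H2AA4, among the 8 highest by mean, were not called in any of the 15 contrasts or 2 F tests. HIST1H2AM ranged from 1.52 to 13.2 TPM over the libraries. HIST2H2AA4 ranged from 0 to 22.1 TPM, with 13.3 and 0 TPM in the D8 CT1.0 pair, and shares its coding sequence with HIST2H2AA3.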

How the data were processed

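Poly(A) RNA was sequenced from 38 libraries in 19 groups of 2. The authors deposited TPM values per gene. The submitters' processing notes list hg38, Salmon 0.8.2 and CASAVA 1.7. Settings, use of strand and annotation release: not given in the sources used here. TPM keeps no depth, so no counting interval can be given. Per the labels, libraries were run on 1 of 2 instruments, not tied to samples.

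The 28221 genes that reached 1 TPM in 2 or more libraries were fitted on log2(TPM + 1) with limma 3.58.1 in R 4.3.3 (lmFit, contrasts.fit and eBayes with trend; 19 group means, 19 residual degrees of freedom), with 15 contrasts, 2 F tests and Benjamini-Hochberg adjustment within each. The fit was tested on simulated data. Transcript models came from GENCODE 29, which matched 57881 of 58219 identifiers without their version.

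The clustered histone genes and companion lists were chosen with earlier results of these data known. Named genes are the 8 with the highest mean TPM, per comparison the 4 largest called rises and falls, the genes with described polyadenylated forms or testis expression, and from other lists the 4 largest called changes and the 2 highest genes that did not pass. HIST1H2BH, the called genes beyond the fourth and levels outside the conditions compared were chosen after their values were seen. Alternatives covered the pseudocount, the low-value filter, scaling, genes tested, a replicate block, dose ranges and each library left out.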

Additional observations from a re-analysis of the deposited data

Results flagged for a closer look

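A difference between day 4 and day 8 under the same contrast was called with limma for 13 results, each in log2(TPM + 1) as day 8 less day 4. In the CT slope (per µM) the difference was positive for 9 genes. It was 0.64 ± 0.09 (SE) for HIST1H2BK, 0.60 ± 0.14 for HIST1H2BJ, 0.56 ± 0.11 for HIST1H2BD and 0.53 ± 0.06 for HIST2H2BE. It was 0.37 ± 0.14 for HIST2H4A (adjusted p = 0.0434, limma), whose slope was negative on both days (-0.50 and -0.13). The slopes of its copy HIST2H4B were -0.10 and -0.14, and the split of reads between the copies is uncertain. The difference was 0.32 ± 0.07 for HIST1H1C (-0.08 and 0.24). It was 0.28 ± 0.05 for HIST1H2AC (-0.17 and 0.11), 0.26 ± 0.06 for HIST1H4J (-0.19 and 0.07) and 0.25 ± 0.06 for HIST3H2A (0.15 and 0.41). The difference was negative for HIST3H3, at -0.49 ± 0.13 (0.15 and -0.34), and for HIST1H2BE, at -0.27 ± 0.09 (0.03 and -0.25).

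The IWP2 effect differed for HIST1H2BG, by -1.22 ± 0.25 (adjusted p = 0.0299, limma; 0.74 at day 4 and -0.49 at day 8). It was not called with median-ratio scaling (-1.10) or in 5 of the fits that leave out 1 library (-1.06 to -1.29). The RA effect differed for HIST1H2BD, by -1.82 ± 0.55 (adjusted p = 0.0272, limma; -0.69 and -2.51). The slope differences of HIST2H4A, HIST1H2BE, HIST1H4J and HIST3H2A lie near a threshold. The first was 0.17 (adjusted p = 0.311, limma) without replicate 1 of D4 CT4.0, and that of HIST1H2BE was -0.24 (adjusted p = 0.0692, limma) without replicate 2 of D8 CT0.0. HIST1H4J was at 0.22 without replicate 1 of D8 CT0.0 and HIST3H2A at 0.22 without replicate 1 of D4 CT3.0, both under the size threshold of 0.25.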

How the results depend on the processing

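Of 57 called results of single genes, 47 kept direction and call under median-ratio scaling, 52 under rescaling without ribosomal protein and mitochondrial genes, 52 with a pseudocount of 0.1, 54 without the low-value filter and 57 when only protein-coding genes were fitted. Over all combinations of a called result and 1 library left out, the call was kept in 561 and lost in 102. A result counts once for each library it involves, so means and slopes over many libraries weigh more. The CT slopes were refitted over 2 dose ranges chosen after seeing the data. Of 21 slope results, 16 kept their call over 0.4 to 4.0 µM and 3 over 0.0 to 2.0 µM. Over the latter, HIST1H1C's slope difference reversed to -0.45 and HIST1H2BD's day 8 slope to -0.053, neither of them called.

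The counts of called genes moved as follows. The pseudocount of 0.1 gave 4 (from 2) for the day 4 slope, 11 (from 7) for RA at day 8, 7 (from 4) for the day 4 mean against day 0, 5 (from 0) for the day 8 mean against the day 4 mean and 3 (from 1) for the RA difference between days. Median-ratio scaling gave 13 (from 8) for the day 8 slope, 0 (from 2) for RA at day 4, 0 (from 1) for the IWP2 difference and 2 for the RA difference. Rescaling gave 1 for RA at day 4, 1 (from 0) for IWP2 at day 4 and 3 for the RA difference. Doses of 0.4 to 4.0 µM gave 5 for the day 4 slope. Doses of 0.0 to 2.0 µM gave 6 for the day 4 slope, 5 for the day 8 slope and 5 (from 11) for their difference. The cause was not tested.

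With 1 library left out, counts ranged from 2 to 2 for the day 4 slope, 8 to 10 for the day 8 slope and 9 to 14 for their difference. They ranged from 1 to 3 and 5 to 9 for CT4.0 at days 4 and 8, 1 to 3 and 5 to 7 for RA, 0 to 1 and 0 to 0 for IWP2, 0 to 1 for the IWP2 and for the RA difference, 3 to 4 for the day 4 mean against day 0, 0 to 0 for the day 8 mean against the day 4 mean, 3 to 5 and 2 to 4 for untreated day 4 and day 8, and 15 to 20 and 19 to 24 for the F tests. Replicate numbers did not pair the libraries (correlations from -0.043 to 0.037 over 171 pairs of groups). With the replicate block 3 in place of 4 genes were called for untreated day 8 against day 4 and 8 in place of 7 for RA at day 8, and no other count moved. TPM keeps no depth, so precision at low values is unknown.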
